A study of Mus musculus with 6 samples.

Results

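Club and secretory airway genes were followed in whole lungs of mice with and without Isthmin-1 (ISM1), a secreted protein of the lung. The members, 10 of the 54532 genes in the deposited count table, were found there by symbol: the secretoglobins Scgb1a1, Scgb3a1 and Scgb3a2, the BPI fold proteins Bpifa1 and Bpifb1, the mucin Muc5b, the lectin Reg3g, the receptor Cckar, the transporter Slc16a11 and the ion pump Atp2c2. RNA was sequenced from perfused lungs of 3 wild-type (WT) and 3 ISM1-/- mice, untreated and 2 months old, with 1 library per mouse. Both genotypes were on the C57BL/6J background, WT mice having been purchased and ISM1-/- mice bred in-house, so that source and genotype cannot be told apart. The 10 genes were chosen by the difference of their counts between these same WT and ISM1-/- libraries, and that difference is therefore described without a test. Some were also taken as airway genes of low variance, so a small spread within a genotype follows in part from the choice.

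Club cells are the non-ciliated secretory cells that line the bronchioles of the mouse. They release secretoglobins and other small proteins into the airway lining fluid, carry out xenobiotic metabolism and act as progenitors of ciliated cells. Goblet cells, which make gel-forming mucins, are sparse in the airways of unchallenged mice, where MUC5B is the main secreted mucin.

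Total counts lay between 37606133 and 42345042 per library, and the scaling factors of the trimmed mean of M values (TMM) between 0.985 and 1.01. Ism1 transcript was present in every library, at 76.9 to 82.2 CPM (counts relative to the TMM-scaled library total) in WT and 65.5 to 75.7 CPM in ISM1-/- lungs, and its log2 fold change of -0.19 (SE 0.0709) did not pass edgeR's quasi-likelihood test (Benjamini-Hochberg adjusted p = 0.217). Loss of the gene product could thus not be checked from these counts, and ISM1-/- below means the libraries labelled so. All 10 genes passed the filter on low counts, the smallest of their counts in a library being 324. Over all 18689 genes tested, 4.72% differed between genotypes at an adjusted p under 0.1 (3.34% lower and 1.38% higher in ISM1-/- lungs), and 0.567% also by at least 2-fold. At an unadjusted p under 0.05 the share was 15.8%. Genotypes did not overlap in CPM for 21.6% of all genes tested, and 12.3% did not overlap and were lower in ISM1-/- lungs.

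The mean level of each of the 10 genes was lower in ISM1-/- than in WT lungs, and the median log2 fold change was -0.50, with a range from -0.84 for Atp2c2 to -0.02 for Reg3g. By comparison, the median over all genes tested was 0.0043 and 48.8% of them had a lower mean in ISM1-/- lungs. In 6 of the 10 (Scgb1a1, Scgb3a2, Bpifa1, Cckar, Slc16a11 and Atp2c2), every ISM1-/- library was below every WT library. In the remaining 4, Scgb3a1, Bpifb1, Muc5b and Reg3g, the genotypes overlapped. Of the 10, 7 were past the threshold that 3.34% of all genes passed in the lower direction, and 0 of the 10 were past it with a 2-fold change; these counts follow from how the genes were picked. The number past the threshold was 3 without WT replicate 2, 3 without ISM1-/- replicate 2, 5 without ISM1-/- replicate 1 and 6 in each of the other fits that left out 1 library. Calls over all genes, 882 with all libraries, changed as well. They numbered 150 without WT replicate 2, 261 without ISM1-/- replicate 2, 247 without ISM1-/- replicate 1 and 341 to 1470 otherwise. RNA of a bulk lung does not tell fewer cells of a type from less RNA per cell.

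Sequence upstream of the transcription start was available for 5 of the 10 genes, Scgb3a1, Bpifa1, Bpifb1, Reg3g and Slc16a11, from RefSeq on GRCm38.p6. The 250 bases before the start of 4 secreted products are shown because the genes sit at both ends of the range, with Bpifa1 among the lowest in ISM1-/- lungs relative to WT and Scgb3a1 and Reg3g the least different. Capitals mark matches on either strand to 3 sets of letters, a reverse-strand match being printed as its reverse complement. The first is the TATA box, searched as TATAAA. The second is a core that FOXA factors bind, searched as TGTTTAC and as TGTTTGC. The third is a core that NKX2-1, a regulator of lung epithelium, binds, searched as CTCAAG.
Scgb3a1 (chr11:49663345-49663594, plus strand): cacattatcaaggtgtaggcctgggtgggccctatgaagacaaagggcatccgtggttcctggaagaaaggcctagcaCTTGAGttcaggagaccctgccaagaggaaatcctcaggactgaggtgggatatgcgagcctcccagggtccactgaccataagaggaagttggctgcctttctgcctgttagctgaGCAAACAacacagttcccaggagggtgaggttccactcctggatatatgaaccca
Bpifa1 (chr2:154142630-154142879, plus strand): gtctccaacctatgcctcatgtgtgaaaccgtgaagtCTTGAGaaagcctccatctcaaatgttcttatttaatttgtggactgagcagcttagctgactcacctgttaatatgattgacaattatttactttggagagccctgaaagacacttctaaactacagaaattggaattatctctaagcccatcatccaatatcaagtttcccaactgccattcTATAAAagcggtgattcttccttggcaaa
Bpifb1, first of its RefSeq starts (chr2:154190568-154190817, plus strand): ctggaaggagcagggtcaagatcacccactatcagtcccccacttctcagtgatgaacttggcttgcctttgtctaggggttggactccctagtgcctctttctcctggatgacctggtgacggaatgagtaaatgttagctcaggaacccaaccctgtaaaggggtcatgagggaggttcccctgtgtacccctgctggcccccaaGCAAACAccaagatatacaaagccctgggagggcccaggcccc
Reg3g (chr6:78468875-78469124, minus strand): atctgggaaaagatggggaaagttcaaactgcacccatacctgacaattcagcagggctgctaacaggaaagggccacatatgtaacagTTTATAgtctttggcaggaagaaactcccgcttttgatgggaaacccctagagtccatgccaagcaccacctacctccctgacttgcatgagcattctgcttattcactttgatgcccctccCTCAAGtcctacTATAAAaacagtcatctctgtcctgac

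The TATA letters stood 29 to 24 bases before the start of Bpifa1 and 27 to 22 bases before that of Reg3g, which held a second copy on the reverse strand. Among all 32851 promoters of the same length in the table, 12.4% held these letters. FOXA letters occurred 55 to 49 bases before the start of Scgb3a1 and 43 to 37 bases before the first start of Bpifb1, against 7.29% of all promoters. The window of the other Bpifb1 start (chr2:154200130-154200379) held none of the motifs. NKX2-1 letters were present in Scgb3a1, Bpifa1 and Reg3g, against 13.3% of all promoters. Slc16a11 held none of the motifs in its window and had 14 CpG dinucleotides, where the median promoter had 6. Bpifa1 and Reg3g, which differed most and least between genotypes among these genes, shared the TATA and NKX2-1 letters. These are matches of letters only.

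Scgb1a1 encodes the club cell secretory protein (CC10), the most abundant product of club cells, and lies on GRCm38 at chr19:9083636-9087958 on the minus strand. It stood at 20349, 20502 and 21907 CPM in WT replicates 1 to 3 and at 12943, 14439 and 16624 CPM in ISM1-/- replicates 1 to 3. The lowest WT library was 3724.5 CPM above the highest ISM1-/- library. Means of 20919 ± 859 and 14669 ± 1851 CPM (SD, n = 3 each) gave a log2 fold change of -0.51 (SE 0.0935) that left 70.1% of the WT mean. Scgb1a1 alone gave more counts than any other gene in each library, taking 2.10% ± 0.0877 (SD, n = 3) of all counts in WT and 1.46% ± 0.169 (SD, n = 3) in ISM1-/- lungs. With libraries scaled to totals without Scgb1a1, an alternative added after the data were seen, its log2 fold change was -0.53.

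Scgb3a2 (uteroglobin-related protein 1), another secretoglobin of club cells, gave the same separation at a lower level. It lies at chr18:43764289-43767399 on the plus strand. Its libraries read 649, 738 and 666 CPM in WT and 519, 482 and 588 CPM in ISM1-/- lungs. No ISM1-/- library reached the lowest WT library, and the means of 684 ± 47.6 CPM and 530 ± 54.1 CPM (SD, n = 3 each) differed by -0.37 (SE 0.0829) on the log2 scale. Scgb3a1 (also called HIN-1), which is made by club cells and in the upper airway and lies at chr11:49663610-49665118 on the plus strand, behaved otherwise, with 236, 250 and 201 CPM in WT and 229, 207 and 222 CPM in ISM1-/- lungs. Every ISM1-/- value of Scgb3a1 lay inside the WT range, and its log2 fold change was -0.06 (SE 0.082), or -0.15 without WT replicate 3 and 0.0048 without WT replicate 2. Within a library, Scgb1a1 and Scgb3a2 were each lower relative to Scgb3a1 in ISM1-/- lungs. These ratios share the difference by which the genes were chosen and are described without a test. No share over other pairs of genes was counted. The log2 ratio of Scgb1a1 to Scgb3a1 was 6.52 ± 0.219 in WT and 6.06 ± 0.209 in ISM1-/- lungs (SD, n = 3 each), without overlap. That of Scgb3a2 to Scgb3a1 was 1.58 ± 0.136 and 1.27 ± 0.12, also without overlap. For Scgb1a1 against Scgb3a2 the ratio was 4.94 ± 0.126 in WT and 4.79 ± 0.136 in ISM1-/- lungs, and the genotypes overlapped.

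The 3 secretoglobin members carried 99.96% to 99.97% of all counts over the 69 secretoglobin genes and pseudogenes in the table, and 64 of the other 66 had no count in any library. Only Scgb1c1, a small secretoglobin, was high enough to be tested among those outside the 10 genes. WT libraries held 287, 311 and 359 of its counts, and ISM1-/- libraries 223, 216 and 170, all below WT. Its log2 fold change was -0.67 (SE 0.14), past edgeR's quasi-likelihood test (Benjamini-Hochberg adjusted p = 0.0409), but did not pass without WT replicate 2, WT replicate 3 or ISM1-/- replicate 1.

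**Figure D1:**
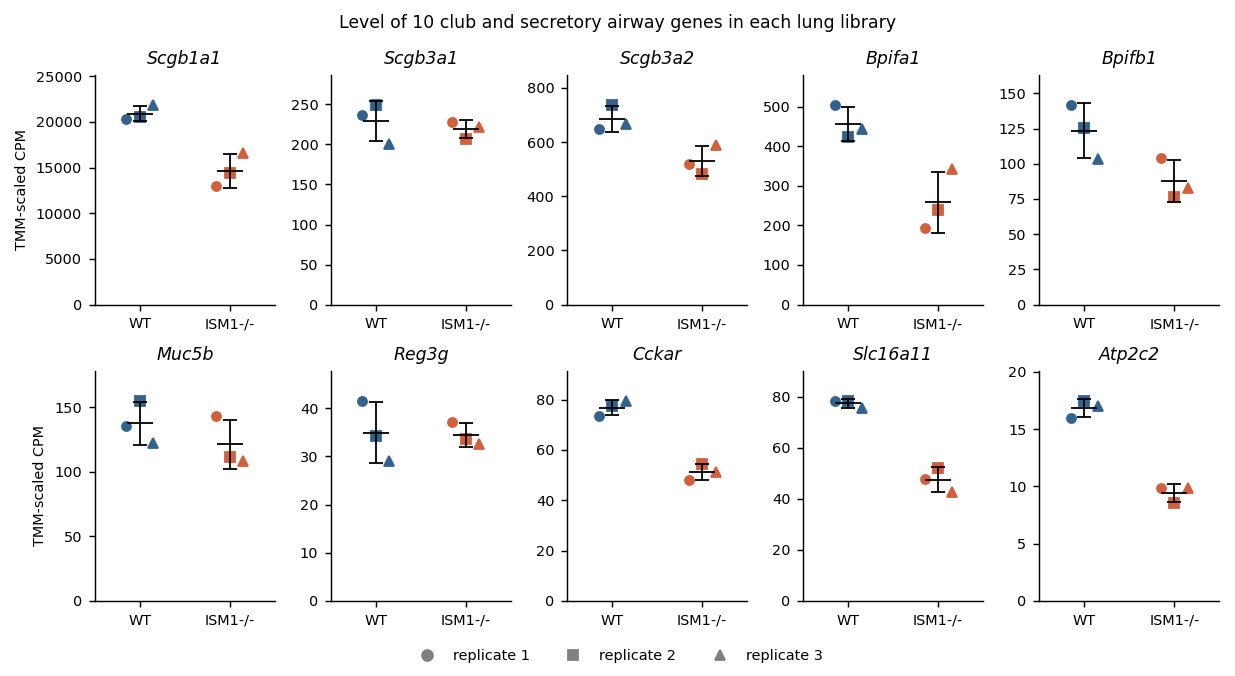
TMM-scaled CPM (vertical axis, from 0, a separate scale for each gene) of the 10 genes in 3 WT and 3 ISM1-/- libraries, with 1 point per mouse and the mean and SD as black bars. The genotypes are apart in 6 genes and overlap in Scgb3a1, Bpifb1, Muc5b and Reg3g.

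Bpifa1 (SPLUNC1), a secreted BPI fold protein that acts on bacteria and on sodium absorption at the airway surface, was the least even of the 10 genes among ISM1-/- mice. Its SD of log2 CPM was 0.417 in ISM1-/- lungs and 0.134 in WT lungs, where Reg3g had the largest SD (0.259). The level of Bpifa1 was 506, 423 and 444 CPM in WT and 194, 238 and 344 CPM in ISM1-/- libraries. All ISM1-/- libraries were below all WT libraries, but replicate 3 of the ISM1-/- group stood much nearer to WT than replicate 1. The means were 457 ± 43.1 CPM in WT and 259 ± 76.8 CPM in ISM1-/- lungs (SD, n = 3 each), and the log2 fold change was -0.82 (SE 0.171). Leaving out ISM1-/- replicate 3 gave -1.08 and leaving out ISM1-/- replicate 1 gave -0.65. Bpifb1 (LPLUNC1), a longer relative made by goblet and other secretory cells, had 142, 125 and 104 CPM in WT and 104, 76.2 and 82.6 CPM in ISM1-/- libraries. WT replicate 3 and ISM1-/- replicate 1 met at nearly the same level, so the genotypes overlapped there, while the means were 124 ± 19.3 CPM and 87.7 ± 14.7 CPM (SD, n = 3 each), a log2 fold change of -0.49 (SE 0.132).

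Bpifa1 and Bpifb1 are neighbours in a cluster of BPI fold genes on chromosome 2 (Bpifa1 at chr2:154142880-154149219 and Bpifb1 at chr2:154190818-154220369, both on the plus strand of GRCm38). They carried 98.2% to 99.1% of the counts over the 13 genes of the cluster, and no other gene of it exceeded 200 counts in a library. Of the other BPI fold genes, 0 of the 2 tested passed edgeR's test (0 at an unadjusted p under 0.05, and 0 in DESeq2). Bpifb5, next to Bpifb1, stood at 4.62 ± 0.163 CPM in WT and 4.76 ± 0.444 CPM in ISM1-/- lungs (SD, n = 3 each), and Bpifa2 at 0.667 ± 0.308 CPM and 0.614 ± 0.215 CPM.

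Muc5b, the gel-forming mucin that builds the mucus layer of mouse airways (chr7:141839070-141873084, plus strand), overlapped between genotypes. The libraries read 135, 155 and 122 CPM in WT and 143, 112 and 108.5 CPM in ISM1-/- lungs. ISM1-/- replicate 1 was above all but the highest WT library and the others were below WT. Mean levels were 137 ± 16.6 CPM and 121 ± 19.2 CPM (SD, n = 3 each), a log2 fold change of -0.18 (SE 0.115), which was -0.32 without ISM1-/- replicate 1 and -0.085 without WT replicate 2. Relative to Muc5b in the same library, Bpifb1 was lower in all ISM1-/- libraries, with a log2 ratio of -0.16 ± 0.199 in WT and -0.47 ± 0.0801 in ISM1-/- lungs (SD, n = 3 each). Among 12 other mucin genes, 8 were tested and 1 fell, Muc4, a membrane-bound mucin of airway epithelium, with a log2 fold change of -0.30 (SE 0.0667, edgeR adjusted p = 0.0484). With 1 library left out, Muc4 passed the test without ISM1-/- replicate 3 and in none of the other 5 fits.

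Reg3g, an antibacterial C-type lectin of mucosal epithelia (chr6:78466269-78468872, minus strand), showed the smallest difference of all. Its values were 41.5, 34.3 and 29.0 CPM in WT and 37.2, 33.5 and 32.6 CPM in ISM1-/- lungs, so that all ISM1-/- libraries lay inside the WT range. Means of 34.9 ± 6.28 CPM and 34.4 ± 2.46 CPM (SD, n = 3 each) gave a log2 fold change of -0.02 (SE 0.118), which turned to 0.12 without WT replicate 1 and to 0.02 without ISM1-/- replicate 3. Reg3g held 99.3% to 99.9% of the counts over the 6 Reg genes on chromosome 6. Reg3b, Reg3a and Reg2 were at 0 counts in every library.

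Cckar, Slc16a11 and Atp2c2, which encode membrane proteins, had no overlap between genotypes. Their SD of log2 CPM, pooled over genotypes, was the smallest of the 10. In ISM1-/- lungs alone, Scgb3a1 had the smallest SD (0.0729). Low variance was part of how the 10 were chosen, so these spreads, small beside those of the other members, are described only. Cckar, a receptor for the peptide cholecystokinin (chr5:53697776-53707705, minus strand), was at 73.5, 77.3 and 79.5 CPM in WT and at 48.1, 54.3 and 51.4 CPM in ISM1-/- libraries. The means, 76.8 ± 3.03 CPM and 51.2 ± 3.11 CPM (SD, n = 3 each), were far apart relative to both SDs, and the log2 fold change was -0.58 (SE 0.0664). The transcripts of cholecystokinin itself (Cck) and of its other receptor (Cckbr) were at no more than 2 counts in any library, so neither was tested.

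Slc16a11, a monocarboxylate transporter family member (chr11:70212752-70216417, plus strand), was at 78.2, 78.4 and 75.5 CPM in WT and at 47.7, 52.2 and 42.6 CPM in ISM1-/- libraries. With means of 77.4 ± 1.6 CPM and 47.5 ± 4.81 CPM (SD, n = 3 each), its log2 fold change was -0.70 (SE 0.0773). Of the 13 other genes of the family, 11 were tested and 2 fell: Slc16a10, an aromatic amino acid transporter (log2 fold change -0.45, SE 0.0866, edgeR adjusted p = 0.0319), and Slc16a9 (log2 fold change -0.41, SE 0.0948, edgeR adjusted p = 0.0569). In this family 0 passed without ISM1-/- replicate 1 or 2, 1 without WT replicate 1 or 2 and 4 without ISM1-/- replicate 3. Atp2c2, the secretory pathway calcium and manganese pump found in secretory epithelia (chr8:119700009-119757717, plus strand), was the lowest of the 10 genes in CPM. It stood at 16.0, 17.5 and 17.1 CPM in WT and at 9.90, 8.54 and 9.84 CPM in ISM1-/- libraries. The highest ISM1-/- library was well below the lowest WT library. Its means of 16.8 ± 0.763 CPM and 9.43 ± 0.77 CPM (SD, n = 3 each) gave the largest log2 fold change of the 10, -0.84 (SE 0.092). Atp2c1, the pump of the same family that is found in most cells, was at 124 ± 2.39 CPM in WT and 132 ± 9.97 CPM in ISM1-/- lungs (SD, n = 3 each) and did not pass the test (log2 fold change 0.09, edgeR adjusted p = 0.553). Gm45747, a gene model awaiting experimental evidence, overlaps Atp2c2 on the same strand and had at most 3 counts in a library.

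Levels of different genes were compared in FPKM, the deposited scale that divides by gene length as well as by library total. In WT lungs the mean FPKM descended from Scgb1a1 (44031) through Scgb3a2 (1045), Bpifa1 (565.5), Scgb3a1 (421), Slc16a11 (68.6), Bpifb1 (54.0), Cckar (35.0), Reg3g (24.5) and Muc5b (9.19) to Atp2c2 (8.78). Each neighbour in this order was separated in all 3 libraries except the last pair, Muc5b and Atp2c2, which overlapped. In ISM1-/- lungs the order of means was Scgb1a1 (30679), Scgb3a2 (804), Scgb3a1 (401), Bpifa1 (317), Slc16a11 (41.9), Bpifb1 (38.1), Reg3g (24.0), Cckar (23.3), Muc5b (8.07) and Atp2c2 (4.89). Here Scgb3a1 overlapped with Bpifa1, Slc16a11 with Bpifb1 and Reg3g with Cckar. Bpifa1 exceeded Scgb3a1 in 3 of 3 WT libraries and in 1 of 3 ISM1-/- libraries.

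**Figure D2:**
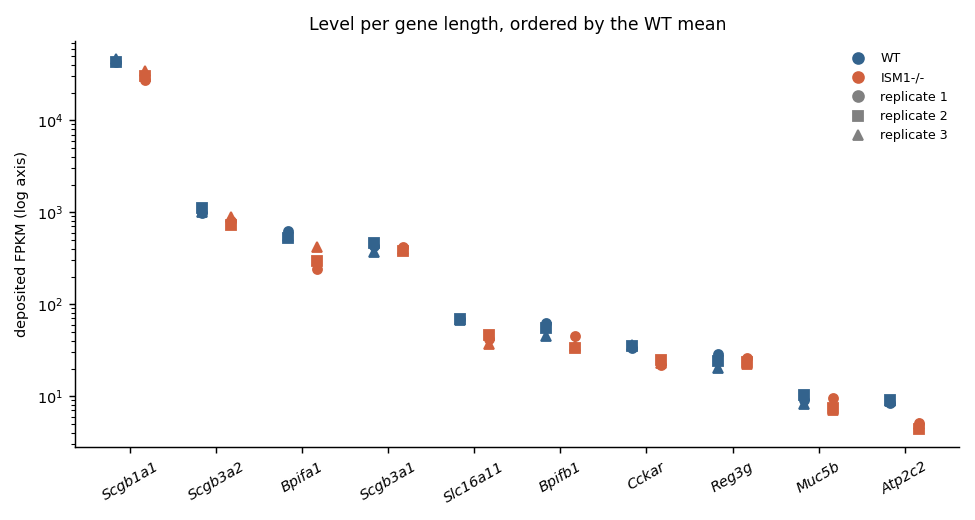
Deposited FPKM (logarithmic vertical axis) of the 10 genes in 3 WT (blue) and 3 ISM1-/- (red) libraries, ordered by the WT mean, with 1 symbol per mouse. Levels span from 44031 FPKM for Scgb1a1 to 8.78 FPKM for Atp2c2 in WT lungs, and Bpifa1 is above Scgb3a1 in WT but not in every ISM1-/- library.

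The spread among mice of 1 genotype also differed between the genes. The SD of log2 CPM, pooled over genotypes, was 0.31 for Bpifa1, 0.23 for Bpifb1, and 0.20 for both Muc5b and Reg3g. It was 0.11 for Slc16a11, 0.097 for Atp2c2 and 0.074 for Cckar. Among genes within 2-fold of the same mean level, 99.4% had a smaller SD than Bpifa1, 97.7% a smaller one than Bpifb1, 96.5% than Muc5b and 93.8% than Reg3g, against 70.7% for Slc16a11, 44.4% for Cckar and 34.7% for Atp2c2. Because low variance was part of the choice of members, spreads smaller than those of the other members are not a result about these genes. Seen after the values, the deviations from the genotype mean had a shared order in some of the genes. WT replicate 3 was the lowest WT library and ISM1-/- replicate 1 the highest ISM1-/- library for Scgb3a1, Bpifb1, Muc5b and Reg3g, the 4 genes whose genotypes overlapped. For Scgb1a1 and Cckar the same libraries took the opposite places. ISM1-/- replicate 1 also had the highest value of Clca1, a product of goblet cells named after its values were seen, at 52.5 CPM against 4.76 to 15.3 CPM in the other 5 libraries. Its sum over the goblet cell list was also the highest, at 436 CPM against 353 to 407 CPM. That list includes Clca1, and without Clca1 the sum of ISM1-/- replicate 1 was not the highest. The part of goblet cell RNA in the levels of these 4 genes was not tested.

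Other club cell markers were taken from a list of 23 genes, of which 22 were tested. This list and those that follow were chosen with earlier results of these data known. Their counts and p-values are therefore descriptive and are no separate check on the members. Of the 22 club markers, 9 fell and 0 rose, the rest not passing the test, and the median log2 fold change was -0.27. Over all genes tested, 3.34% passed the test in the lower direction. Chad, a leucine-rich matrix protein, fell from 30.6 ± 0.379 to 19.8 ± 1.64 CPM (SD, n = 3 each), with a log2 fold change of -0.62 (SE 0.0743, edgeR adjusted p = 0.00939). Cyp2f2, the cytochrome P450 that activates naphthalene in club cells, fell from 2381 ± 184 to 1775 ± 64.1 CPM (log2 fold change -0.42, SE 0.0712, edgeR adjusted p = 0.0214). Cldn10, a tight junction claudin, and Cxcl17, a mucosal chemokine, fell by 0.56 (edgeR adjusted p = 0.0303) and 0.42 (edgeR adjusted p = 0.0314) on the log2 scale. The others that fell were Cbr2, Hp, Dcxr, Lypd2 and Pon1. Summed over the list, club markers reached 9593 to 10625 CPM in WT and 8182 to 8881 CPM in ISM1-/- libraries. The number that fell was 9 without WT replicate 1, 1 without WT replicate 2, 3 without WT replicate 3, 2 without ISM1-/- replicate 1, 4 without ISM1-/- replicate 2 and 14 without ISM1-/- replicate 3. Chad passed the test in each of these 6 fits.

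Set against this sum in the same library, 5 of the 10 genes were lower in ISM1-/- than in WT lungs without overlap, as were 2.53% of all genes tested; the 10 were chosen by a difference that this ratio shares. The difference in the log2 ratio was -0.60 for Bpifa1, -0.58 for Atp2c2, -0.45 for Slc16a11, -0.32 for Cckar and -0.26 for Scgb1a1. Scgb3a2 and Bpifb1 were lower by 0.11 and 0.24 with overlap, and Scgb3a1, Muc5b and Reg3g had higher mean ratios, by 0.20, 0.07 and 0.25, also with overlap. Atp2c2 was lower against Scgb1a1 too, without overlap, with a difference of -0.32 in the log2 ratio. The closest libraries were nearly tied, at -10.33 in WT replicate 3 and -10.35 in ISM1-/- replicate 1. No share over other genes was counted for this ratio. Cckar kept nearly the same ratio to Scgb1a1, its log2 ratio being -8.09 ± 0.0346 in WT and -8.16 ± 0.158 in ISM1-/- lungs (SD, n = 3 each).

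**Figure D3:**
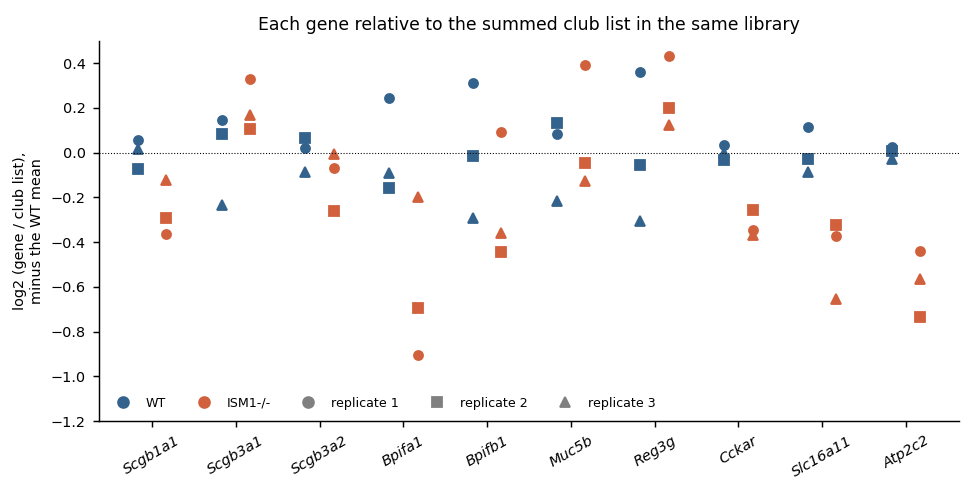
Log2 ratio of each gene to the summed CPM of the 23 club markers in the same library, minus the WT mean of that ratio (vertical axis, log2 units), for 3 WT (blue) and 3 ISM1-/- (red) libraries. All ISM1-/- points lie below all WT points for Scgb1a1, Bpifa1, Cckar, Slc16a11 and Atp2c2.

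Of 25 goblet cell and mucus genes listed, 20 were tested and 0 passed edgeR's test, with 3 at an unadjusted p under 0.05 and 1 called by DESeq2. Slc12a2, a chloride cotransporter, was at 176.5 ± 5.1 CPM in WT and 165 ± 13.1 CPM in ISM1-/- lungs, and Sytl2, a granule transport protein, at 38.7 ± 1.09 CPM and 38.8 ± 6.04 CPM (SD, n = 3 each). Tff1 and Tff3 were at 0 counts. Among 15 tested genes of secreted airway defence proteins, 1 fell and 1 rose. Wfdc2, a protease inhibitor of airway secretory cells, fell by 0.31 on the log2 scale (SE 0.0674, edgeR adjusted p = 0.0481). Lyz1, a lysozyme, rose from 227.5 ± 16.4 to 347 ± 28.5 CPM (SD, n = 3 each), by a log2 fold change of 0.61 (SE 0.0772, edgeR adjusted p = 0.0104). Leaving out WT replicate 2, WT replicate 3, ISM1-/- replicate 1 or ISM1-/- replicate 2 left 1 gene of this list past the test.

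Regulators of secretory cell fate were tested in 24 of 24 cases, and 3 fell and 0 rose. Elf5, a transcription factor of secretory epithelia, fell by 0.36 (SE 0.0791, edgeR adjusted p = 0.0487) on the log2 scale, and Sox2, the factor that marks conducting airway epithelium, by 0.34 (SE 0.0812, edgeR adjusted p = 0.0652). Cebpd fell by 0.87 (SE 0.235, edgeR adjusted p = 0.0966) with overlapping genotypes, WT replicate 1 having 59.0 CPM and the other WT libraries 130 and 123 CPM, and did not pass in DESeq2. Leaving out WT replicate 2 or 3 or ISM1-/- replicate 1 or 2 left 0 of the 24 past the test. Without ISM1-/- replicate 3, 4 fell and 2 rose. The median over the list was -0.09.

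Ciliated cells share the airway lining with club cells. Of 15 of their markers tested, 9 fell, 0 rose and 6 did not pass the test, the median log2 fold change was -0.43, and the sum over the list was 1025 to 1146 CPM in WT and 873 to 931 CPM in ISM1-/- libraries. Foxj1, the master factor of motile cilia, fell by 0.51 (SE 0.0711, edgeR adjusted p = 0.0118), the dynein Dnah9 by 0.51 (SE 0.0744, edgeR adjusted p = 0.0153), Dynlrb2 by 0.48 (SE 0.0823, edgeR adjusted p = 0.0232) and Pifo by 0.58 (SE 0.103, edgeR adjusted p = 0.0249) on the log2 scale. The count was 7 without WT replicate 1, 2 without WT replicate 2, 4 without WT replicate 3, 3 without ISM1-/- replicate 1 4 without ISM1-/- replicate 2 and 12 without ISM1-/- replicate 3, with Foxj1 and Dnah9 past the test in each of these fits. Divided by the ciliated sum of the same library, a reference chosen after the data were seen, Scgb1a1, Cckar, Slc16a11 and Atp2c2 were lower in ISM1-/- lungs without overlap, as were 2.41% of all genes tested, with differences of -0.25, -0.32, -0.44 and -0.57 in the log2 ratio. The other 6 overlapped on this ratio, with differences of -0.59 for Bpifa1, -0.23 for Bpifb1, -0.10 for Scgb3a2, 0.08 for Muc5b, 0.21 for Scgb3a1 and 0.26 for Reg3g. Scgb1a1 was apart only by a near tie, its log2 ratio being 4.1607 in WT replicate 2 and 4.1589 in ISM1-/- replicate 3. Bpifa1 overlapped as narrowly, with -1.4397 in WT replicate 2 and -1.4372 in ISM1-/- replicate 3.

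**Figure D4:**
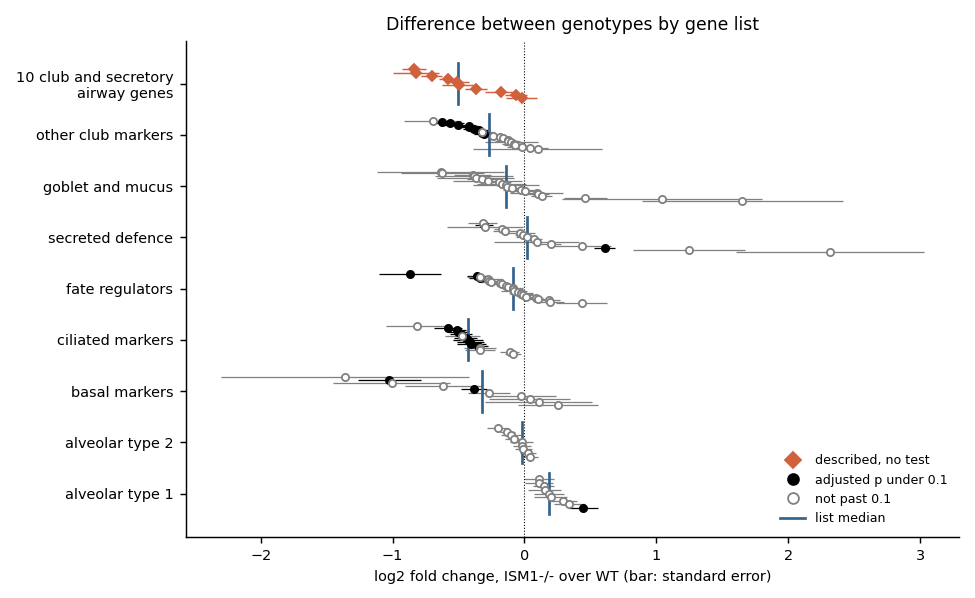
Log2 fold change of ISM1-/- over WT (horizontal axis) with its standard error for the 10 genes (red diamonds, described without a test) and for the tested genes of 8 lists, filled where edgeR's adjusted p is under 0.1, with the median of each row as a blue line. The row medians are -0.50 for the 10 genes, -0.27 for other club markers and -0.43 for ciliated markers, against -0.02 for alveolar type 2 markers.

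Markers of other cells that a dissected lung could hold were counted beside these. Basal cell markers summed to 27.8 to 34.5 CPM in WT and 23.6 to 24.5 CPM in ISM1-/- libraries, and 2 of 10 fell, Krt15 (log2 fold change -1.02, edgeR adjusted p = 0.0552) and Col17a1 (log2 fold change -0.38, edgeR adjusted p = 0.076). Of the basal markers, 1 passed without WT replicate 1, 2 without ISM1-/- replicate 3 and 0 without any 1 of the other libraries. Cartilage genes, which follow the large airways, summed to 7.42 to 9.79 CPM and 6.54 to 8.38 CPM, with 0 of 5 called by edgeR or DESeq2 and 3 at an unadjusted p under 0.05. The median log2 fold change was -0.55 for the cartilage genes tested and -0.33 for the basal markers. Genes of submucosal and salivary glands gave 0 calls among 6 tested (3 at an unadjusted p under 0.05, 1 in DESeq2), and 7 of the 15 listed, among them Dcpp1, Dcpp2, Dcpp3 and Pip, were at 0 counts. Neuroendocrine, tuft and ionocyte markers gave 0 calls among 8 tested (0 at an unadjusted p under 0.05, 0 in DESeq2). Of 5 squamous epithelial genes tested, all with a lower mean in ISM1-/- lungs, 2 passed the test, Sprr1a (log2 fold change -1.41, edgeR adjusted p = 0.0539) and Krt1 (log2 fold change -1.41, edgeR adjusted p = 0.0997, not passed with DESeq2's size factors), with Sprr3, Lce3a and Dsg3 at 0 counts and sums of 30.6 to 33.4 CPM and 25.7 to 27.9 CPM. Of these 5, 1 passed without WT replicate 1, WT replicate 3 or ISM1-/- replicate 3, and 0 without WT replicate 2, ISM1-/- replicate 1 or ISM1-/- replicate 2. Among 3 thyroid genes tested, all with a lower mean in ISM1-/- lungs, 1 passed the test, Tshr (log2 fold change -1.93, edgeR adjusted p = 0.0163). Tshr had 40 to 54 counts in WT and 11 to 13 counts in ISM1-/- libraries. The thyroid list summed to 4.51 to 4.64 CPM and 2.48 to 3.02 CPM, with Pax8 at 0 counts. How far the amount of conducting airway in each dissected lung entered the levels of the 10 genes was not tested.

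Alveolar epithelium makes up most of the lung epithelium. Its type 2 markers had 0 calls among 9 tested (1 at an unadjusted p under 0.05, 0 in DESeq2), a median log2 fold change of -0.02 and a sum of 27417 to 28430 CPM in WT and 26548 to 27146 CPM in ISM1-/- libraries. Sftpc, the defining surfactant protein of these cells, was at 12458 ± 175 CPM and 12366 ± 502 CPM (SD, n = 3 each). Of 9 type 1 markers, all with a higher mean in ISM1-/- lungs, 1 passed the test, Rtkn2 (log2 fold change 0.45, SE 0.11, edgeR adjusted p = 0.0715), and 0 passed without WT replicate 2 or without any 1 of the ISM1-/- replicates. Their median was 0.19, and their sum was 5498 CPM in WT replicate 1, 6995 and 7193 CPM in the other WT libraries and 7093 to 8029 CPM in ISM1-/- libraries. No difference between the lists was tested.

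The genes whose levels ran closest to those of the 10 were sought for the 2 whose log2 CPM ranged over at least 1 among the libraries, Bpifa1 and Atp2c2. Likeness was the root mean square difference of log2 CPM, centred on each gene's mean, over the 6 libraries and 15866 genes. For Bpifa1 the closest were Scara5 (0.0779), Kcne4 (0.0935) and Cidec (0.105), where the median gene was at 0.51. Slc9a2 (0.0763), Ankmy1 (0.0817) and Ak8 (0.0835) were closest to Atp2c2, where the median gene was at 0.44. With 6 libraries in 2 genotypes, these figures describe a shared profile and carry no test.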

How the data were processed

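Strand-specific poly-A libraries of perfused lungs were sequenced in paired ends on a NovaSeq. Per the labels and methods, the authors mapped reads to GRCm38 (mm10) with STAR and deposited raw counts per gene, together with FPKM that they had divided by library total and gene length. The counting program, annotation and strand setting are not given in the sources used here, nor is the ISM1 allele or the sex of the mice. In edgeR 4.0.16 (R 4.3.3), genes reaching 0.5 CPM in 1 or more libraries were kept and scaled by TMM, followed by the quasi-likelihood test of ISM1-/- against WT over 6 libraries with Benjamini-Hochberg adjustment, called at an adjusted p under 0.1. DESeq2 1.42.0 was an alternative. The script was tested on simulated data. No 2 libraries agreed within sampling noise (smallest chi-square per degree of freedom 5.46). Replicate numbers did not pair the mice. The members and lists were chosen with earlier results of these data known. Outside the 10 members, genes were named by a rule: up to 4 genes of the smallest p past the threshold in each list or family, or the 2 of highest mean CPM where none passed, and for profile likeness the 3 closest genes. Clca1 was added after its values were seen. Promoter sequences and motif matches came from RefSeq (GRCm38.p6).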

Additional observations from a re-analysis of the deposited data

How the results depend on the processing

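The median of the members' log2 fold changes was -0.52 to -0.45 with 1 library left out and -0.52 to -0.50 under the other alternatives, while 3 to 6 of the members were called with 1 library left out, against 7 with all libraries. The sign of a member's mean difference turned for Reg3g without WT replicate 1 or ISM1-/- replicate 3 and for Scgb3a1 (0.0048) without WT replicate 2. Of all genes tested, 882 passed an adjusted p under 0.1, 1632 without the low-count filter, 455 at an adjusted p under 0.05 and 150 to 1470 with 1 library left out. With at least a 2-fold change the count was 106, then 293, 51 and 31 to 188. With 1 library left out, 1 to 14 club markers, 2 to 12 ciliated markers and 0 to 4 fate regulators were called lower. In the same fits 0 to 1 goblet genes and 1 to 3 defence genes were called in either direction. Without ISM1-/- replicate 3, 2 fate regulators were called higher. Without the filter on low counts, 7 fate regulators were called lower, and 3 goblet genes and 4 defence genes were called. At an adjusted p under 0.05, 1 fate regulator was called. DESeq2 called 1 goblet gene and 4 defence genes. Among the 36 named genes outside the members, leaving out 1 library lost 3 to 17 calls and an adjusted p of 0.05 lost 8, with 0 reversed. The replicate numbers do not pair the mice (correlation of same-numbered deviations -0.0405 to 0.031). With the replicate block, 1105 genes were called in all, among them 5 fate regulators that were lower and 1 goblet gene. Leaving out 1 library leaves 2 mice in a genotype, and fewer samples by construction. Why the number of calls differs so much between libraries was not tested. With 3 mice a genotype, differences within the spread among mice could not be resolved.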
